A study of Homo sapiens with 18 samples.

Results

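Guide 2 against PURPL, a guide RNA of CRISPR interference, was compared with a control guide over all genes of the knockdown table. The comparison rests on 6 of the 18 libraries of the series, 3 labelled sgPURPL-2 and 3 labelled sgCtrl, and was chosen by those labels and not by any measured value. All libraries came from BJ cells, a line of normal human skin fibroblasts. The sgCtrl and sgPURPL-2 libraries carried a non-PURPL control guide and the second PURPL guide, and 3 sgPURPL-1 libraries with the first PURPL guide shared the same controls. The other 9 libraries, used here for 1 comparison, came from a Ctrl group and from PURPL-OE-1 and PURPL-OE-2, in which PURPL was overexpressed. No dose or harvest time is given in the labels for any of the 6 groups. It is not stated whether the replicates were grown separately, so p-values here measure the spread between these libraries only, which may be technical.

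PURPL is a long noncoding RNA whose transcription responds to p53, and it has been studied in cell survival and in senescence. CRISPR interference brings a catalytically dead Cas9 fused to a repressor to the start of a gene, so that transcription is lowered without a change in the DNA. Fibroblasts build the dermal matrix, of which collagens, elastic fibres and proteoglycans are the main parts, and they respond to TGF-beta, BMP and interferon signals. No guide sequence was used here. As the window in which such guides usually act, the RefSeq promoter of PURPL is shown, with 250 bases before and 50 bases after the listed start, at chr5:27472042-27472341 of GRCh38.p14, plus strand.
PURPL: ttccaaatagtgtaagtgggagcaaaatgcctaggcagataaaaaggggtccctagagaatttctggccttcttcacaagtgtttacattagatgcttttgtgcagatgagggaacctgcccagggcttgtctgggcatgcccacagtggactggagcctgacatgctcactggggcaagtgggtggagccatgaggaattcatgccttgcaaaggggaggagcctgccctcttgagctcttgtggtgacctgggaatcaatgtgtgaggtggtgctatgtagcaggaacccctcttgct
The start lies inside the span that the tables give for the gene, chr5:27217714-27496994 of hg38, plus strand.

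PURPL measured 71.1, 77.0 and 94.3 counts scaled to library size (CPM) in the 3 sgCtrl libraries and 19.0, 21.5 and 17.9 CPM in the 3 guide 2 libraries. The groups were far apart, and the highest guide 2 library lay below the lowest control. The mean went from 80.8 ± 12 to 19.5 ± 1.83 CPM (SD, n = 3 each), a log2 fold change of -2.06 ± 0.101 (SE). This is 4.16-fold lower, with adjusted p = 2.25e-14 in edgeR's quasi-likelihood test with Benjamini-Hochberg adjustment, which gives all adjusted p-values below. Levels are scaled by TMM, edgeR's correction for library composition, and a gene is said to rise or fall where adjusted p is under 0.05.

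The 6 libraries held 11490437 to 12896040 counts, and 4.46% to 5.14% of the control counts and 4.78% to 4.99% of the guide 2 counts were mitochondrial. The sgCtrl libraries differed more among themselves than the guide 2 libraries did, with a chi-square per gene of 4.24 to 10.6 against 2.66 to 3.27, and pairs between the groups lay at 15 to 20.6. All 14 fibroblast markers of the list used were measured, with a summed level of 17023 to 18099 CPM in the controls and 17129 to 17704 CPM with guide 2. Within that sum 4 markers rose and 6 fell. Markers of melanocytes, endothelium, leukocytes, adipocytes and chondrocytes summed to at most 23.1 CPM in any of the 6 libraries. Neural markers summed to 80.9 to 88.3 CPM in the controls and 142 to 156 CPM with guide 2. Most of that came from STMN2, a regulator of microtubules, while the defining markers SOX2 and ELAVL4 were at 0. Smooth muscle markers, which include MYOCD, summed to 158 to 172 and 180 to 200 CPM; LMOD1 went up from a mean of 107 to 137 CPM, CNN1 went down from 58.3 to 46.6 CPM, and MYH11, DES and ACTG2 were near 0. The part of either shift in the results below was not tested.

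With guide 2, 1663 of 13923 tested genes rose and 1730 fell, or 11.9% and 12.4% of genes tested. Counts within gene lists below are to be read beside these shares. Most changes were small: 2356 of the called genes (69.4%) differed by less than 1.5-fold. At least 2-fold changes were more often upward, with 292 genes higher (2.1% of genes tested) and 140 lower (1.01%). Under a stricter low-count filter, which tests fewer low genes, these numbers were 164 and 102. At 4-fold or more, 65 genes rose and 16 fell. The steepest riser was DLX3, a homeobox regulator of skin and bone development, with 1 count in the control libraries together and 97 counts with guide 2. Its count ratio was 97.6, with an exact 95% interval of 17.1 to 3896 that covers counting error only.

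**Figure D1:**
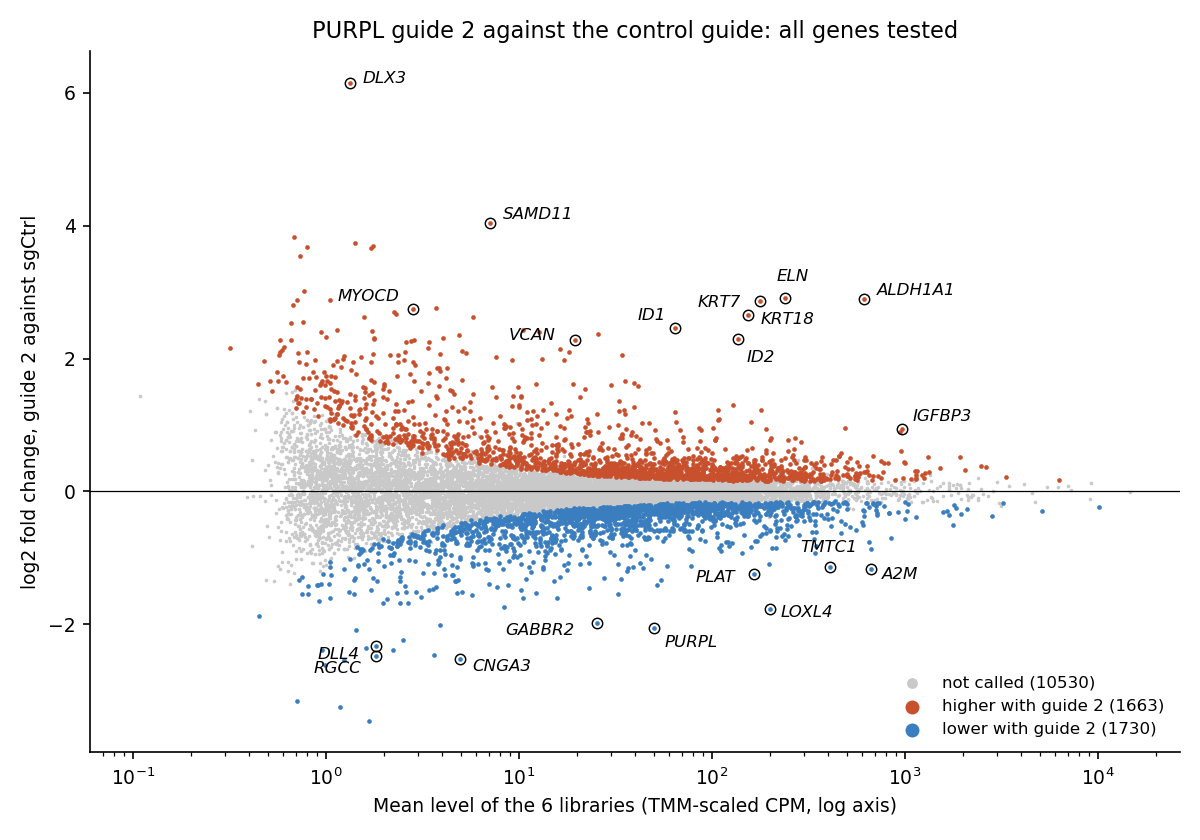
Log2 fold change of guide 2 against sgCtrl for each of the 13923 genes tested, plotted against the mean level of the 6 libraries in TMM-scaled CPM on a log axis; red points rose, blue points fell, grey points were not called, and rings mark the labelled genes. The value of DLX3, with 1 control count, depends on the prior count of the fit. Large changes at high levels are few: ALDH1A1, ELN, KRT7 and KRT18 stand above the rest, and LOXL4, A2M, TMTC1 and PLAT lie among the abundant genes that fell.

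Genes of cell division fell almost as 2 whole lists. Of 37 tested DNA replication genes 36 fell and 0 rose, with a median log2 fold change of -0.59, and of 39 mitosis genes 36 fell and 0 rose, with a median of -0.52. The median over all genes tested was -0.0014. In RNA from a bulk culture, fewer dividing cells and less of these transcripts in each cell cannot be told apart. CCNE2, the cyclin E2 that drives entry into S phase, measured 18.0, 18.3 and 18.8 CPM in the controls and 6.44, 5.88 and 6.65 CPM with guide 2, a 2.9-fold fall (adjusted p = 1.55e-11). CDCA7, a factor of chromatin remodelling in dividing cells, measured 4.42, 3.74 and 3.99 against 1.65, 0.923 and 1.17 CPM (log2 -1.69 ± 0.264, adjusted p = 1.23e-05). CLSPN, a mediator of the replication checkpoint, measured 46.2, 47.1 and 41.2 against 20.7, 18.8 and 23.1 CPM (log2 -1.10 ± 0.0874, adjusted p = 3.67e-11). In each of these genes every guide 2 library lay below every control; over all genes tested, the groups did not overlap in either direction in 35.9%. EZH2, a histone methyltransferase of the polycomb complex, went from 14.8 ± 1.52 to 7.93 ± 0.351 CPM, and LMNB1, a lamin of the nuclear envelope that is used as a senescence marker, from 18.3 ± 1.09 to 8.99 ± 1.16 CPM (SD, n = 3; log2 -0.89 ± 0.124 and -1.03 ± 0.116).

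Promoters of 2 of these genes are shown because they hold the letters TTTCCCGC, one of the 2 strings searched for E2F, the factor family that switches on S phase genes. They come from RefSeq on GRCh38.p14, CDCA7 at chr2:173354622-173354921 on the plus strand and CLSPN at chr1:35769929-35770228 on the minus strand, and the capitals mark the match, which starts 65 and 5 bases before the start of transcription.
CDCA7: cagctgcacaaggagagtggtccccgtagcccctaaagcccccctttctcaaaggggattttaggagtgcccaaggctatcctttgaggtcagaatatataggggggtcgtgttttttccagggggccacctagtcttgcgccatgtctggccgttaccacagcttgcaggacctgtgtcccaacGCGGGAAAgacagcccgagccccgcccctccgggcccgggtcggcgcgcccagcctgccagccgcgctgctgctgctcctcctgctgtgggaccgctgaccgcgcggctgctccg
CLSPN: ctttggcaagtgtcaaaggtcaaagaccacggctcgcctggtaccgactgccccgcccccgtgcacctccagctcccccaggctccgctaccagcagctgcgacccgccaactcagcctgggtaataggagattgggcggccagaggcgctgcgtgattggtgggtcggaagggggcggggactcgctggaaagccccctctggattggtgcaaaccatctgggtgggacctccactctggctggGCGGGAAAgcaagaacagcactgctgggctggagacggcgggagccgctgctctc
Both matches read GCGGGAAA here, the other strand of the searched string. On either strand, TTTCCCGC or TTTGGCGC occurred in 3.76% of 7317 tested genes with 1 listed start, in 5.84% of 908 such promoters of genes that fell, and in 2.41% of 873 of genes that rose. Among genes at least 2-fold lower the share was 10.8% (7 of 65), and among genes at least 2-fold higher it was 0. A match describes the letters of this window and does not show binding.

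All 4 ID genes and several other genes of the BMP response rose. BMPs are ligands of the TGF-beta family whose SMAD effectors switch on the ID genes, inhibitors of basic helix-loop-helix factors. Of 28 tested members of the BMP and ID list 11 rose and 3 fell, with a median of 0.15, and 9 of the 11 at least doubled. Without guide 2 replicate 3, 5 fell. ID1 measured 24.2, 19.7 and 16 CPM in the controls and 117, 104 and 107 CPM with guide 2, a 5.5-fold rise (log2 2.46 ± 0.0928, adjusted p = 6.54e-17). ID2 measured 46.6, 44.4 and 48.0 against 232, 219 and 231 CPM (log2 2.29 ± 0.0683, adjusted p = 1.58e-21). All guide 2 libraries stood several-fold above all controls in both genes. ID3 went from 6.90 ± 1.47 to 29.5 ± 1.65 CPM (log2 2.1 ± 0.118) and ID4 from 1.2 ± 0.325 to 5.66 ± 0.431 CPM (log2 2.24 ± 0.236). ATOH8, a basic helix-loop-helix factor, went from 13.2 ± 1.41 to 54.9 ± 4.04 CPM. Ligands moved both ways: GDF6 went from 1.22 ± 0.384 to 5.55 ± 0.410 CPM, while GDF5 went from 3.47 ± 0.310 to 1.36 ± 0.172 CPM.

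Inhibitors of the BMP pathway moved both ways as well. SMAD6, an inhibitory SMAD, measured 6.33, 5.6 and 6.26 CPM in the controls and 26.3, 27.9 and 26.0 CPM with guide 2 (log2 2.14 ± 0.112, adjusted p = 5.00e-15), and it partly overlaps a same-strand gene. NOG, the secreted antagonist noggin, went from 1.96 ± 0.329 to 4.86 ± 0.632 CPM. BMPER, a secreted regulator that binds BMPs, measured 26.3, 23.6 and 24.6 against 10.7, 9.57 and 12.4 CPM, a 2.27-fold fall (adjusted p = 9.09e-10). In the TGF-beta list 11 of 28 tested members rose and 4 fell, with a median of 0.08. INHBA, which encodes the activin A subunit, measured 11.7, 11.6 and 10.6 against 34.3, 32.6 and 31.5 CPM, a 2.9-fold rise (adjusted p = 1.04e-13). The inhibitors SMAD7 and SKIL rose 2.28-fold and 2.04-fold. LRRC32, which holds latent TGF-beta at the cell surface, measured 5.73, 5.91 and 5.87 against 2.23, 2.18 and 2.90 CPM (log2 -1.25 ± 0.192). The list therefore held both risers and fallers.

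Matrix genes changed in composition rather than in 1 direction. ELN, tropoelastin, the core protein of elastic fibres, measured 55.4, 58.7 and 53.4 CPM in the controls and 422, 426 and 419 CPM with guide 2, a 7.56-fold rise (adjusted p = 5.64e-25). MFAP5, a microfibril protein, measured 6.77, 5.76 and 8.38 against 27.5, 27.6 and 27.4 CPM (log2 1.98 ± 0.120, adjusted p = 8.28e-14). VCAN, versican, a large hyaluronan-binding proteoglycan, measured 5.81, 5.14 and 9 against 29.7, 34.5 and 33.4 CPM (log2 2.28 ± 0.134, adjusted p = 4.23e-13). The guide 2 libraries of ELN and MFAP5 lay within a few percent of each other and far from every control. In the elastic fibre list 8 of 18 tested members rose and 5 fell; without guide 2 replicate 1 these were 5 and 3, and without sgCtrl replicate 2, 3 fell. LOXL1, an oxidase that crosslinks elastin, was among the fallers, from 111 ± 7.16 to 84.0 ± 2.73 CPM. Of 33 proteoglycan and hyaluronan genes 10 rose (30.3%) and 11 fell (33.3%), against 11.9% and 12.4% of all genes tested.

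Of 30 tested collagen genes 12 rose and 6 fell, with a median of 0.22. COL11A1, a minor fibrillar collagen, measured 72.8, 80.5 and 70.9 against 170, 184 and 199 CPM (log2 1.30 ± 0.0684), and COL1A1, the main chain of type I collagen, measured 1503, 1715 and 1567 against 2211, 2227 and 2388 CPM (log2 0.51 ± 0.0598). COL6A1, a chain of beaded filaments, fell from 261 ± 13.4 to 177 ± 8.28 CPM, and COL5A3 from 12.4 ± 1.10 to 6.43 ± 0.817 CPM. Collagen processing genes fell more often than they rose, 9 against 2 of 27. LOXL4, a lysyl oxidase that crosslinks collagen, measured 306, 324 and 298 CPM in the controls and 90.2, 90.6 and 91.1 CPM with guide 2, a 3.41-fold fall (adjusted p = 1.33e-19). Of 26 matricellular genes 10 rose and 6 fell. TGFBI, an adhesion protein of the matrix, rose 2.29-fold.

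Genes of the plasminogen system and its inhibitors were lower in 9 of 18 tested members and higher in 1, with a median of -0.25. Without sgCtrl replicate 1, 3 were higher, and without sgCtrl replicate 2 or guide 2 replicate 2, 0. PLAT, the tissue plasminogen activator, measured 241, 233 and 228 CPM in the controls and 103, 90.0 and 103 CPM with guide 2, a 2.37-fold fall (adjusted p = 4.25e-15). PLAU, urokinase, went from 47.3 ± 0.610 to 29.2 ± 2.50 CPM (log2 -0.69 ± 0.0776). A2M, the broad protease inhibitor alpha-2-macroglobulin, measured 858, 969 and 950 against 415, 414 and 411 CPM, a 2.24-fold fall (adjusted p = 1.76e-15). It was the most abundant of the genes that changed at least 2-fold downward. Of 37 matrix proteases and their inhibitors 14 fell and 5 rose. CTSK, the collagen-degrading cathepsin K, went from 1056 ± 83.5 to 651 ± 18.4 CPM, and MMP1, interstitial collagenase, went the other way, from 184 ± 4.5 to 313 ± 21.5 CPM (SD, n = 3). Integrins, the receptors of the matrix, fell in 6 of 15 tested members and rose in 2, or in 1 without sgCtrl replicate 1 or 2 or guide 2 replicate 1 or 2.

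**Figure D2:**
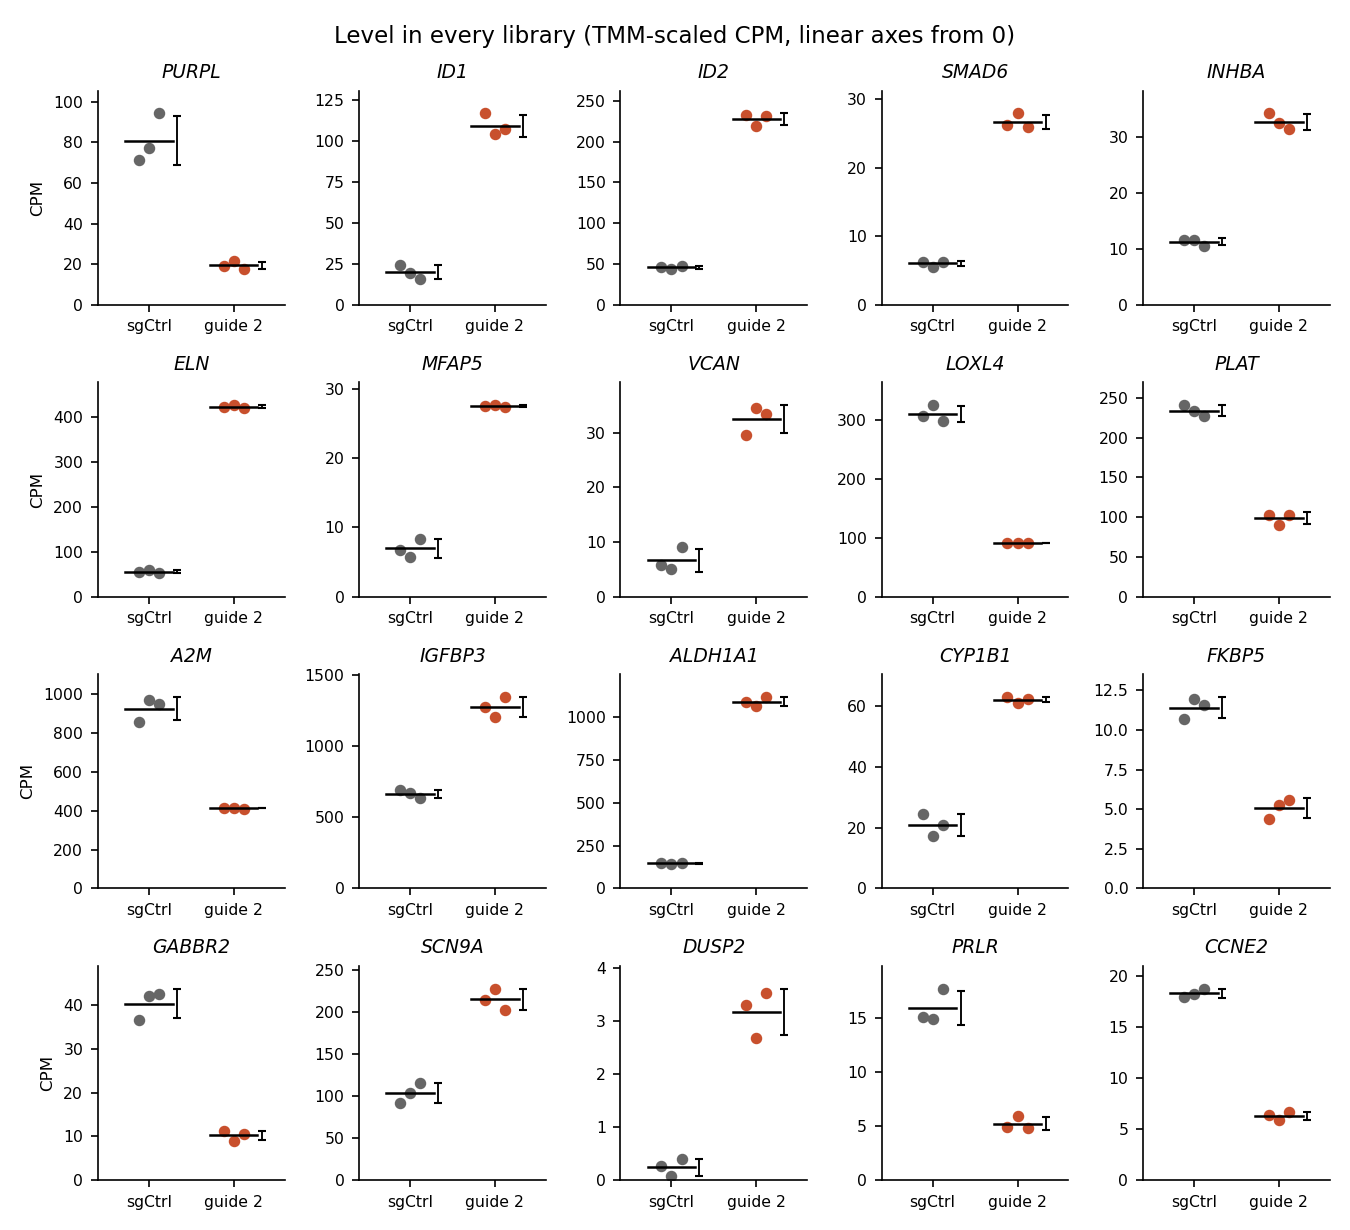
TMM-scaled CPM of 20 genes in each of the 3 sgCtrl (grey) and 3 guide 2 (red) libraries, on linear axes that start at 0; horizontal lines are means and bars at the right of each group are 1 SD (n = 3). The groups overlap in no panel, which the choice of many of these genes required, and 35.9% of all genes tested had groups that do not overlap. ELN rises from a mean of 55.8 to 422 CPM and LOXL4 falls from 310 to 90.6 CPM.

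Keratins of simple epithelia were among the steepest risers. Keratins are the intermediate filament proteins of epithelia, and KRT8 with KRT18 form the pair of simple epithelia, often with KRT7. KRT7 (chr12:52232520-52252186, plus strand) measured 43.2, 46.1 and 39.0 CPM in the controls and 311, 297 and 327 CPM with guide 2, a 7.29-fold rise (adjusted p = 2.34e-23); it partly overlaps a same-strand gene. KRT18 (chr12:52948871-52952906, plus strand) measured 46.9, 41.2 and 38.4 against 254, 256 and 284 CPM, a 6.28-fold rise (adjusted p = 1.35e-22). KRT8, its neighbour on the minus strand at chr12:52897187-52949954, measured 9.02, 7.70 and 8.46 against 19.7, 20.6 and 22.9 CPM (log2 1.33 ± 0.113, adjusted p = 1.67e-10). No control library of these genes came near a guide 2 library. KRT8 and KRT18 have many near-identical pseudogene copies, and how reads with several placements were counted is not given in the sources used here, so their levels are uncertain.

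KRT19, another simple keratin, moved the other way and measured 257, 219 and 191 against 143, 135 and 150 CPM (log2 -0.64 ± 0.0780, adjusted p = 6.47e-07). In all, 5 of 12 tested keratins rose and 2 fell, with a median of -0.04; without sgCtrl replicate 3, 4 fell. The keratinocyte markers KRT5, KRT14 and KRT1 were at 0 in all 6 libraries, and the keratinocyte list summed to 12.6 to 13.8 CPM in the controls and 11.8 to 14.8 CPM with guide 2. Among junction genes, CLDN1, a claudin of tight junctions, measured 6.16, 5.76 and 6.26 against 19.6, 18.6 and 17.5 CPM (log2 1.61 ± 0.123, adjusted p = 1.43e-11), and CDH1, E-cadherin, went from 0.483 ± 0.123 to 1.63 ± 0.516 CPM (log2 1.73 ± 0.400, adjusted p = 0.00161). SNAI2, a repressor of E-cadherin, rose too, from 149 ± 14.6 to 259 ± 9.50 CPM (SD, n = 3).

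ALDH1A1, which oxidises retinaldehyde to retinoic acid, was, with ELN, among the steepest risers of the abundant genes. ALDH1A1 measured 149, 143 and 147 CPM in the controls and 1087, 1062 and 1116 CPM with guide 2, a 7.45-fold rise (log2 2.90 ± 0.0598, adjusted p = 2.10e-25). Other members of the retinoid and nuclear receptor list did not follow as a group. Of the 35 tested in the list 6 rose (17.1%) and 8 fell (22.9%), with a median of 0.01. Over all genes tested the shares were 11.9% and 12.4%. Without sgCtrl replicate 2 only 4 fell (5 without guide 2 replicate 2 or 3). DHRS3, which turns retinaldehyde back to retinol, went from 43.1 ± 5.73 to 73.9 ± 0.939 CPM. CRABP2, a carrier of retinoic acid to its receptor, went from 287 ± 48.6 to 202 ± 5.77 CPM, and RDH10, which makes retinaldehyde, from 174 ± 1.43 to 135 ± 4.18 CPM (SD, n = 3). CYP1B1, an oxidase of steroids and retinoids and a target of the aryl hydrocarbon receptor, measured 24.4, 17.3 and 20.9 against 62.9, 61.2 and 62.3 CPM, a 2.99-fold rise (adjusted p = 1.17e-14). FKBP5, a glucocorticoid receptor target, measured 10.7, 12 and 11.6 against 4.38, 5.29 and 5.56 CPM (log2 -1.17 ± 0.151, adjusted p = 5.91e-07).

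Growth factor genes moved in both directions, 13 up (29.5%) and 14 down (31.8%) of 44 tested. Over all genes tested the shares were 11.9% and 12.4%. IGFBP3, the main carrier of insulin-like growth factors, measured 690, 671 and 633 CPM in the controls and 1273, 1209 and 1346 CPM with guide 2, a 1.92-fold rise (adjusted p = 1.37e-13). IGF2 itself went from 7.34 ± 0.463 to 15.7 ± 0.583 CPM, and PAPPA2, a protease that frees these factors, changed by a log2 of 1.67 ± 0.215; IGF2 partly overlaps a same-strand gene. STC1, stanniocalcin 1, an inhibitor of that protease family, measured 46.4, 48.8 and 56.4 against 21.7, 22.7 and 23.5 CPM (log2 -1.16 ± 0.0831, adjusted p = 3.91e-12). Of the 18 tested genes of this axis 7 rose (38.9%) and 4 fell (22.2%). EREG, epiregulin, a ligand of the EGF receptor, went from 864 ± 42.8 to 475 ± 9.65 CPM, and its relative AREG from 15.6 ± 2.23 to 8.81 ± 0.951 CPM. PDGFD, a ligand of PDGF receptor beta, went from 23.3 ± 1.73 to 9.51 ± 0.496 CPM. HGF, the scatter factor, went up from 5.74 ± 0.415 to 11.2 ± 1.03 CPM (SD, n = 3).

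Targets of the ERK cascade, which relays growth factor signals, fell in 8 of 23 tested members (34.8%) and rose in 2 (8.70%). Over all genes tested 12.4% fell and 11.9% rose. DUSP4, a phosphatase that ERK induces, measured 24.8, 23.7 and 22.5 against 7.10, 7.05 and 9.16 CPM, a 3.03-fold fall (adjusted p = 5.44e-12). DUSP6 went from 38.0 ± 4.81 to 24.5 ± 2.97 CPM and the immediate early gene EGR1 from 5.32 ± 1.05 to 2.86 ± 0.278 CPM. DUSP2, a phosphatase of the same family that p53 and immune signals induce, moved the other way. It measured 0.260, 0.0778 and 0.391 against 3.3, 2.69 and 3.52 CPM (log2 3.66 ± 0.392, adjusted p = 2.00e-08). In the prostaglandin list 5 of 14 tested members rose (35.7%) and 3 fell (21.4%). PTGS2, the inducible cyclooxygenase, measured 73.3, 75.9 and 85.7 against 26.8, 34.1 and 32.3 CPM, a 2.52-fold fall (adjusted p = 5.15e-13). Downstream of it, PTGES, prostaglandin E synthase, went from 18.0 ± 2.06 to 33.3 ± 3.10 CPM and PTGIS, prostacyclin synthase, from 4.91 ± 0.961 to 14.8 ± 0.773 CPM (log2 0.89 ± 0.0954 and 1.58 ± 0.145). The first enzyme and the later synthases thus changed in opposite directions. In the Wnt list 9 of 32 fell (28.1%) and 2 rose (6.25%).

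A few ligands of the immune system rose from low levels. In the TNF superfamily list 1 of 20 tested members rose (5%) and 4 fell (20%), against 11.9% and 12.4% of all genes tested. Without sgCtrl replicate 3, 2 rose. The riser in the main fit, TNFSF15, a ligand of that family, measured 0, 0.233 and 0.313 CPM in the controls and 2.64, 2.52 and 2.74 CPM with guide 2 (log2 3.74 ± 0.495, adjusted p = 8.72e-07). TNFSF18, the ligand of GITR, which is outside that list, measured 0.954, 0.934 and 2.90 against 9.42, 8.14 and 7.20 CPM (log2 2.35 ± 0.275, adjusted p = 6.25e-07). Of 10 tested chemokine genes 7 rose and 1 fell, with a median of 0.79. CXCL12, the homeostatic fibroblast chemokine, measured 22.1, 17.0 and 22.3 against 32.2, 31.4 and 31.6 CPM (log2 0.63 ± 0.0927), and ACKR3, which scavenges it, measured 0.347, 1.17 and 1.25 against 4.87, 4.70 and 4.15 CPM (log2 2.27 ± 0.320, adjusted p = 3.09e-06). CXCL1 went from 2.43 ± 0.425 to 4.65 ± 1.2 CPM. All guide 2 libraries lay above all controls in these 5 genes. The complement gene C3 rose 2.32-fold, from 7.11 ± 0.296 to 16.5 ± 0.969 CPM (SD, n = 3).

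Of 47 tested interferon response genes 38 rose and 0 fell, with a median of 0.38, although only 5 of them at least doubled. RTP4, a chaperone that restrains interferon signalling, measured 0.607, 0.0778 and 0.626 against 2.97, 2.43 and 2.74 CPM (log2 2.63 ± 0.401, adjusted p = 8.26e-06). IFIT2, an antiviral RNA-binding protein that partly overlaps a same-strand gene, measured 108, 119 and 98.6 against 250, 246 and 263 CPM (log2 1.22 ± 0.0663, adjusted p = 1.06e-14). BST2, a membrane protein that tethers virus particles, measured 28.5, 23.3 and 21.3 against 39.7, 44.7 and 47.8 CPM (log2 0.86 ± 0.0964). The amino acid response list of ATF4 targets rose in 30 of 43 tested members and fell in 2, with a median of 0.34, and the NRF2 list rose in 21 of 36 and fell in 1, with a median of 0.26. Without sgCtrl replicate 1, 4 ATF4 targets fell (0 without sgCtrl replicate 2 or guide 2 replicate 2), and 3 NRF2 targets fell without sgCtrl replicate 3 (2 without guide 2 replicate 1). CBS, which feeds cysteine synthesis, went from 1.78 ± 0.893 to 3.87 ± 0.663 CPM, and WARS1, a tRNA synthetase that interferon also induces, from 195 ± 3.28 to 342 ± 14.1 CPM (SD, n = 3).

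The promoters of RTP4 and BST2 are shown because each holds the interferon-stimulated response element, searched as GAAA, any 2 bases and GAAA on either strand, in 2 places. RTP4 lies at chr3:187368135-187368434 on the plus strand, with matches starting 42 and 18 bases before the start, and BST2 at chr19:17405581-17405880 on the minus strand, with overlapping matches 130 and 124 bases before it (RefSeq, GRCh38.p14; capitals mark the matches).
RTP4: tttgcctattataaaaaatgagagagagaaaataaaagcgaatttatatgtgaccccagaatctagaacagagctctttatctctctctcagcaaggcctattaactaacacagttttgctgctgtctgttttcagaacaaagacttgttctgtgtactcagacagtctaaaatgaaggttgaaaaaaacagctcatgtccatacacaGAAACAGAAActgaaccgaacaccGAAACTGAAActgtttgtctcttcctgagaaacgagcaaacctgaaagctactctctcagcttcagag
BST2: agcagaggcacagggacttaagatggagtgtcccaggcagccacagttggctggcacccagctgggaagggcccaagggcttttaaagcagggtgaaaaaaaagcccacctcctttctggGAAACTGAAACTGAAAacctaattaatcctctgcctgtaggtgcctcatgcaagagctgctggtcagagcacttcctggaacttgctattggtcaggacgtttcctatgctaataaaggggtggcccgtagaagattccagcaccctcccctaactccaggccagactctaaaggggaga
These letters occurred in 3.06% of the 7317 promoters, in 5.84% of those of genes that rose and in 1.98% of those of genes that fell. Among genes at least 2-fold higher the share was 3.25%. The promoter of TNFSF15, at chr9:114792481-114792780 on the minus strand, is given as an example of a steep riser outside the interferon list, with TGACTCA, the site of AP-1, in capitals on its other strand.
TNFSF15: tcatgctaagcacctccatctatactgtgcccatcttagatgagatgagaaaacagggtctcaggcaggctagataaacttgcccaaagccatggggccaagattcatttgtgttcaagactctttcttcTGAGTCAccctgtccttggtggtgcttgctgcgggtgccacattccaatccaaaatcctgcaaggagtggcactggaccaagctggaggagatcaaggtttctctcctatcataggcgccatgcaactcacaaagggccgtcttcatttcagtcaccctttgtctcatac
TGACTCA occurred in 3.02% of all promoters, 4.01% and 3.85% of those that rose and fell, and 8.94% of those at least 2-fold higher. TGATGNAA, the letters searched for ATF4, occurred in 1.5%, 2.75% and 0.991%, and in 5.69% of those at least 2-fold higher. The other letters searched are given in the same order. TGACNNNGC, searched for NRF2, occurred in 15.8%, 14.9% and 16.6%, and in 12.2% of those at least 2-fold higher. TGACGTCA occurred in 3.65%, 3.09% and 3.08%, and GGAATG in 10.8%, 12.1% and 10.5%. CCAAT occurred in 37.7%, 34.1% and 43.0%, and TTTGAA in 9.65%, 9.39% and 13.9%. Serum response letters occurred in 5 of 7317 promoters. These shares are descriptions of the windows.

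Developmental transcription factors were more often higher than lower: 17 of 60 tested mesenchymal regulators rose (28.3%) and 6 fell (10%). Over all genes tested the shares were 11.9% and 12.4%. SAMD11, a nuclear protein with a SAM domain, measured 0.607, 1.09 and 0.705 CPM in the controls and 11.2, 12.8 and 16.1 CPM with guide 2, a 16.4-fold rise (adjusted p = 1.17e-14). MYOCD, myocardin, the coactivator of smooth muscle genes, measured 0.607, 0.389 and 1.17 against 4.87, 4.78 and 5.09 CPM (log2 2.74 ± 0.283, adjusted p = 9.64e-09). DLX2, a homeobox gene like DLX3, measured 0.520, 0.623 and 0.626 against 3.22, 3.86 and 1.80 CPM (log2 2.30 ± 0.351). PRRX2, a homeobox gene of mesenchyme, went from 9.66 ± 0.513 to 21.6 ± 0.514 CPM and SOX4 from 7.77 ± 0.799 to 17.1 ± 1.18 CPM. Among the fallers, PITX1, a hindlimb regulator, went from 14 ± 3.11 to 6.52 ± 0.178 CPM. POU2F2, an octamer-binding factor best known from B cells, measured 39.0, 32.8 and 30.1 against 12.3, 12.7 and 12.3 CPM, a 2.73-fold fall (adjusted p = 3.57e-12), and partly overlaps a same-strand gene. In the list of Notch and Hedgehog genes 6 of 23 tested members rose (26.1%) and 1 fell (4.35%). The Notch ligands named here split. DLL4 measured 3.21, 3.35 and 2.58 against 0.496, 0.504 and 0.783 CPM, a 5.03-fold fall (adjusted p = 2.43e-05). JAG1 went from 12.3 ± 1.69 to 19.8 ± 1.22 CPM and the target HES1 from 0.639 ± 0.262 to 2.22 ± 0.412 CPM.

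Genes of excitable cells, which fibroblasts express at various levels, moved both ways. Of 42 tested synaptic and neuronal genes 10 rose (23.8%) and 6 fell (14.3%), against 11.9% and 12.4% of all genes tested. Of 32 potassium channel genes 8 rose and 8 fell, 25% each (5 fell without guide 2 replicate 2). With overlapping genes left out, which tests fewer genes, 6 synaptic genes rose and 1 fell, and 5 potassium channel genes rose and 4 fell. GABBR2, which encodes a part of the metabotropic GABA receptor, measured 36.5, 42.0 and 42.7 CPM in the controls and 11.2, 9.06 and 10.5 CPM with guide 2, a 3.95-fold fall (adjusted p = 3.00e-15). CNGA3, a cyclic nucleotide-gated channel, measured 7.37, 8.87 and 9.08 against 1.49, 1.59 and 1.33 CPM, a 5.73-fold fall, and SYT7, a calcium sensor of vesicle fusion, measured 5.55, 7.39 and 5.64 against 1.65, 0.588 and 1.10 CPM, a 5.53-fold fall. Both partly overlap same-strand genes. SCN9A, the sodium channel Nav1.7, measured 92.1, 104 and 115 against 214, 228 and 203 CPM, a 2.07-fold rise (adjusted p = 9.69e-13). SLITRK6, a synaptic adhesion protein, measured 0.520, 0.623 and 0.705 against 3.97, 4.03 and 3.99 CPM (log2 2.67 ± 0.300). STMN2 went from 69.4 ± 4.81 to 135 ± 4.28 CPM (log2 0.96 ± 0.0652).

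Of 1588 tested long noncoding RNAs 144 rose (9.07%) and 72 fell (4.53%), both below the 11.9% and 12.4% of all genes tested, whereas protein-coding genes rose and fell in similar numbers, 1486 and 1639 of 11897. In the lowest of 5 equal groups by mean level, genes of all types had shares near those of the noncoding RNAs, 8.80% and 3.88%. Whether noncoding RNAs differ from other genes of like level was not tested. LINC02593 measured 0.781, 1.48 and 0.548 CPM in the controls and 8.34, 5.46 and 5.64 CPM with guide 2 (log2 2.77 ± 0.272, adjusted p = 4.66e-09). It lies on chromosome 1, as does SAMD11. LINC01133 measured 3.3, 2.49 and 3.29 against 15, 9.48 and 12.4 CPM (log2 2.02 ± 0.177), and IL21-AS1, an antisense transcript at the IL21 gene, measured 5.12, 5.06 and 5.72 against 20.7, 20.7 and 21.8 CPM (log2 1.99 ± 0.113). PITX1-AS1 went from 12.4 ± 1.93 to 6.22 ± 0.639 CPM, beside the fall of PITX1 on the other strand, and partly overlaps a same-strand gene. Of 378 antisense RNAs 45 rose (11.9%) and 15 fell (3.97%), and of 181 LINC genes 20 rose (11%) and 13 fell (7.18%), so their shares of risers were near that of all genes. Antisense fallers numbered 9 without guide 2 replicate 1 and 8 without replicate 3, and LINC risers 12 without sgCtrl replicate 2 or guide 2 replicate 2.

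Most called genes lay outside the 74 gene lists, as did most genes tested. Of 10619 tested genes in no list, 1122 rose (10.6%) and 1231 fell (11.6%), out of 1663 risers and 1730 fallers in all. These shares lay below the 16.4% and 15.1% of the 3304 tested genes in a list. EPB41L3, a membrane skeleton protein and tumour suppressor, measured 7.20, 10.2 and 7.44 CPM in the controls and 46.7, 37.9 and 44.5 CPM with guide 2, a 5.18-fold rise (adjusted p = 3.86e-14). FRMPD4, a scaffold of dendritic spines, measured 2.95, 3.04 and 3.76 against 16.2, 19.1 and 17.7 CPM (log2 2.44 ± 0.146), and NALF1, an auxiliary factor of the sodium leak channel, went from 4.10 ± 0.811 to 21.5 ± 1.60 CPM (log2 2.40 ± 0.136). The 2 genes partly overlap same-strand genes. Among the fallers, PRLR, the prolactin receptor, measured 15.1, 14.9 and 17.7 against 4.96, 5.96 and 4.78 CPM, a 3.04-fold fall (adjusted p = 1.63e-10). TMEM158, a membrane protein induced by RAS, measured 4.42, 2.57 and 4.23 against 0.330, 0.839 and 0.939 CPM, a 5.21-fold fall, and RGCC, a regulator of cell cycle and complement response, measured 2.95, 3.04 and 3.29 against 0.578, 0.755 and 0.313 CPM, a 5.6-fold fall. CDCP1, a substrate of SRC kinases, went from 13 ± 1.16 to 3.87 ± 0.812 CPM. TMTC1, an enzyme of protein O-mannosylation, was among the most abundant fallers, from 562 ± 49.2 to 256 ± 10.5 CPM (SD, n = 3), and partly overlaps a same-strand gene.

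**Figure D3:**
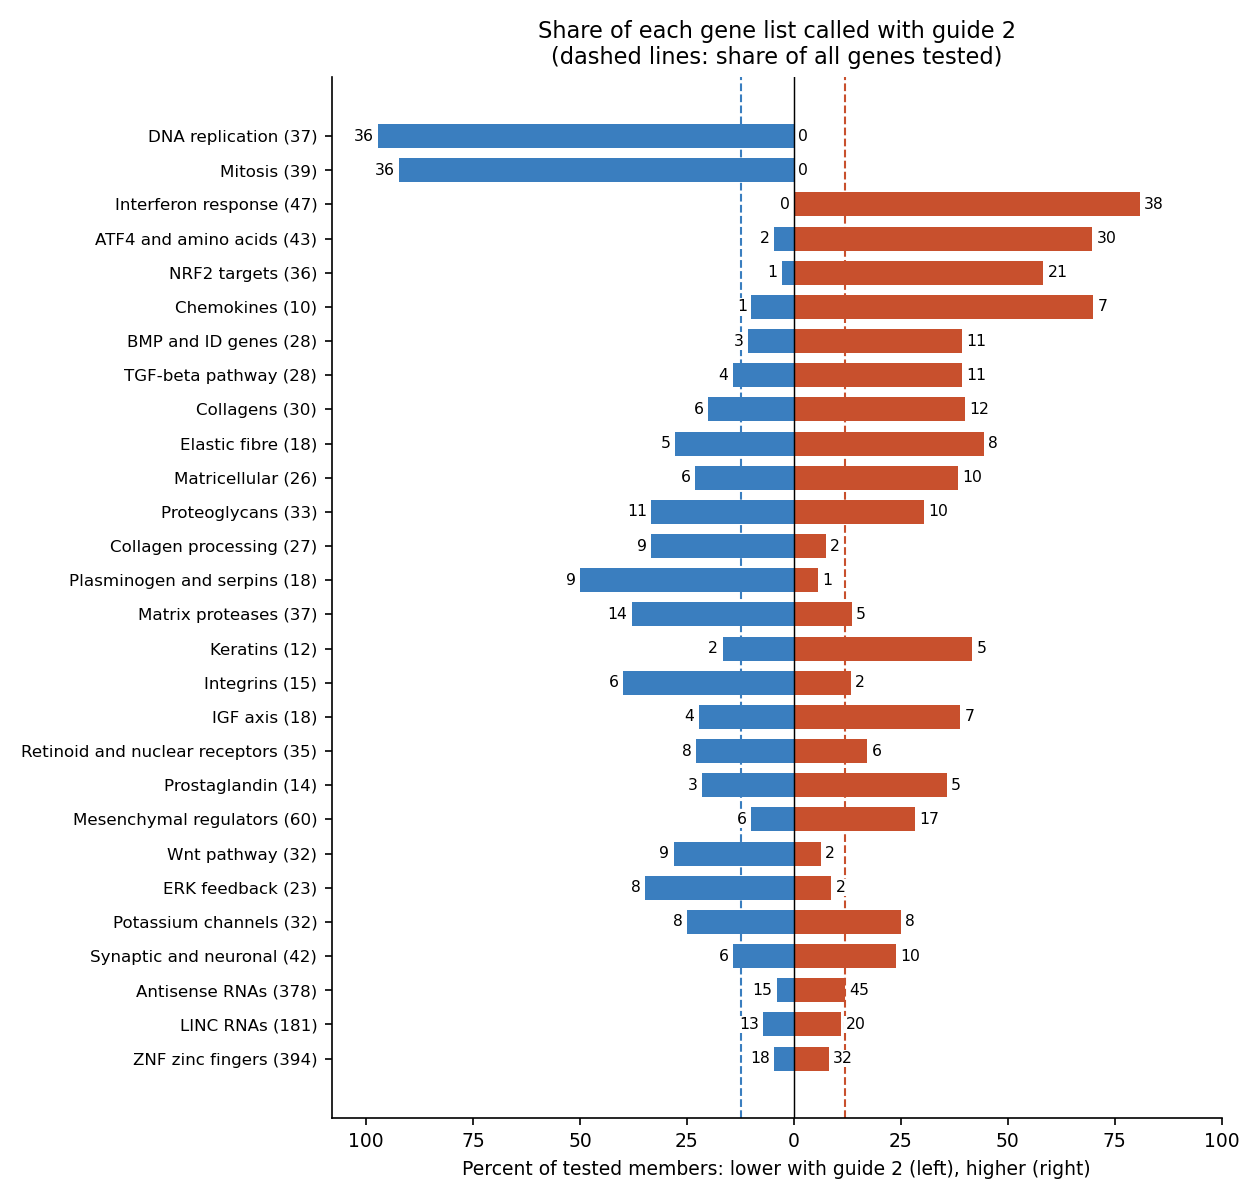
Percent of the tested members of 28 gene lists that rose (red, to the right) or fell (blue, to the left) with guide 2; the number of members called is printed at each bar, the number tested stands in parentheses, and dashed lines mark the 11.9% and 12.4% of all genes that rose and fell. DNA replication and mitosis extend only to the left and the interferon list only to the right, while matrix, keratin and channel lists extend both ways.

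Across the genome, chromosome 19 had the smallest share of risers, 5.78% of 899 genes, with 9.57% fallers and a median of -0.05. Chromosome 4 had the largest, 16.5% of 550 genes, with 16.4% fallers and a median of 0.02. Sorted by span into 5 equal groups, genes of 107792 bp or more rose in 16.5% of cases and fell in 13.4%. In the group with the shortest spans 8.76% rose and 9.80% fell. Sorted by mean level in the same way, 8.80% rose and 3.88% fell in the lowest group, and 19.1% and 16.8% in the highest, so calls came more often where counts were high.

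Guide 1 served as a second guide against the same target, and the 2 guides share their control libraries. Their values are therefore given side by side, with the test of the direct difference. Between guide 2 and guide 1, 1288 of 13923 genes differed (9.25% of genes tested). Of the genes that rose with guide 2, 385 (23.2%) differed from guide 1, and guide 2 was the higher in 326 of them. Of the genes that fell, 354 (20.5%) differed, with guide 2 the higher in 157 and the lower in 197. The same guide 2 libraries enter the calls and this contrast, so part of these shares follows from the choice of genes. PURPL itself measured 17.9, 15.2 and 14.1 CPM with guide 1, and the difference of guide 2 from guide 1 was 0.30 ± 0.119 (adjusted p = 0.128).

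Keratins stood out among these differences. Many genes named here were chosen for a large change with guide 2 or a large difference from guide 1, so their p-values describe that choice in part. KRT7 measured 81.8, 72.6 and 83.1 CPM with guide 1 against 311, 297 and 327 CPM with guide 2 (log2 difference 1.98 ± 0.0682, adjusted p = 2.79e-19). KRT18 measured 77.0, 75.2 and 75.1 CPM with guide 1 (difference 1.80 ± 0.0679, adjusted p = 2.10e-18). Both rose above the controls with either guide, and in each the guide 1 libraries lay between the controls and guide 2. ALDH1A1 measured 363, 348 and 340 CPM with guide 1 (difference 1.64 ± 0.0565, adjusted p = 2.79e-19), and ELN 285, 279 and 262 CPM (difference 0.62 ± 0.0573, adjusted p = 5.37e-09). The ID genes differed less: the difference was 0.19 ± 0.0790 for ID1 (adjusted p = 0.164) and 0.12 ± 0.0616 for ID2 (adjusted p = 0.283), neither of which passed. For other genes the guide 1 libraries lay near the controls, or, for IGF2, below the control mean. NXF3, an RNA export factor, measured 0.856, 0.396 and 0.523 CPM with guide 1 against 1.39, 0.856 and 0.470 in the controls and 4.21, 3.78 and 4.85 CPM with guide 2 (difference 2.83 ± 0.327, adjusted p = 2.93e-07). SCN9A measured 107, 108 and 113 CPM with guide 1 (difference 0.97 ± 0.0693, adjusted p = 2.23e-11), IGF2 5.91, 5.39 and 6.62 CPM (difference 1.40 ± 0.128, adjusted p = 3.92e-09) and TNFSF15 0.622, 0.0792 and 0.174 CPM (difference 3.10 ± 0.452, adjusted p = 1.18e-05). Among fallers, STC1 measured 44.7, 48.1 and 47.4 CPM with guide 1 (difference -1.04 ± 0.0837, adjusted p = 2.03e-10). KRT19 was the reverse case, 83.3, 79.6 and 87.1 CPM with guide 1, below guide 2 (difference 0.77 ± 0.0813, adjusted p = 2.12e-07). Of 13923 genes tested, 34 passed in opposite directions against sgCtrl with the 2 guides and also differed between the guides. In 54 of all genes tested (0.388%) every guide 2 library lay below and every guide 1 library above every control. The reverse order was not counted.

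**Figure D4:**
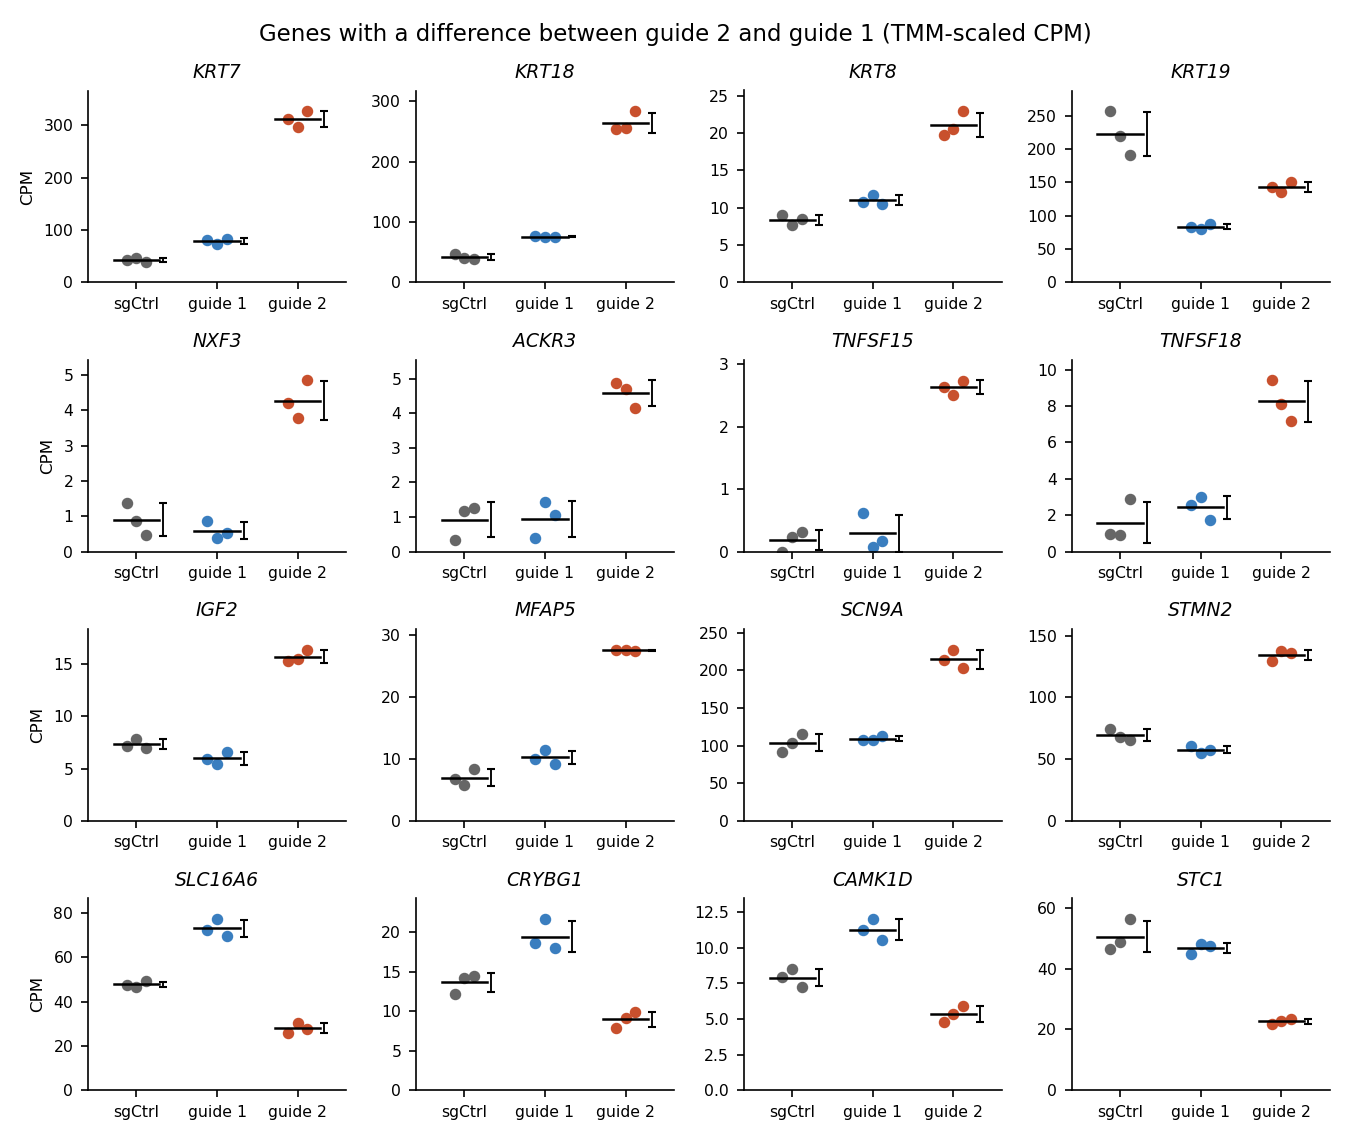
TMM-scaled CPM of 16 genes that differed between the guides, in each sgCtrl (grey), guide 1 (blue) and guide 2 (red) library, on linear axes that start at 0; lines are means and bars 1 SD (n = 3). KRT7 and KRT18 step up from sgCtrl over guide 1 to guide 2, NXF3 and SCN9A are high with guide 2 while guide 1 lies near sgCtrl, and SLC16A6, CRYBG1 and CAMK1D lie above sgCtrl with guide 1 and below it with guide 2.

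The overexpression table asks what the same genes did where PURPL was raised, against its own Ctrl group. PURPL itself rose there by a log2 of 1.43 in line 1 and 0.93 in line 2. In line 1 19.5% of 15267 tested genes rose and 20.1% fell, and in line 2 18.9% and 19.6%. Of 1619 guide 2 risers tested there, 20.2% rose and 21.6% fell in both lines, against 14.4% and 15.6% of all 13638 genes tested in both tables. Of 1717 fallers, 14.7% rose and 33.5% fell in both lines. Genes that fell with guide 2 were more often lower than higher with overexpression as well. Of the 307 genes named by the rule for named genes and tested there, 72 passed in the direction opposite to guide 2 in both lines. Over all guide 2 calls, 21.6% of risers and 14.7% of fallers were opposite in both lines. The same direction in both lines was seen in 20.2% of risers and 33.5% of fallers, so the 72 genes do not stand for a general reversal.

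All 47 tested interferon response genes fell in both overexpression lines, against 15.6% of all genes tested in both tables, and 38 of them rose with guide 2. IFIT2 changed by a log2 of -3.53 and -3.95 in lines 1 and 2 against 1.22 with guide 2, and RTP4 by -3.63 and -3.23 against 2.63. TNFSF18 changed by -1.66 and -1.16 and EPB41L3 by -1.57 and -1.31, both risers with guide 2. A2M, a faller with guide 2, rose by 1.42 and 1.71, and TMTC1 rose by 0.48 and 0.25. All these values passed the test in both lines. Among genes at least 2-fold lower with guide 2, 41.7% fell in both lines and 12.1% rose in both. TMEM158 changed by -2.1 and -1.64, SYT7 by -1.86 and -1.10, PRLR by -0.96 and -1.45, CDCP1 by -1.89 and -1.17, LOXL4 by -0.96 and -0.61 and PLAT by -1.01 and -1.17, and all fell with guide 2. MYOCD and SCN9A rose in all 3 comparisons, by 1.37 and 1.10 and by 0.66 and 0.47 in the lines. For the steepest abundant risers the lines did not move together: ALDH1A1 changed by 0.57 in line 1 and -0.24 in line 2, and ELN by 0.06 (adjusted p = 0.527) and -0.67.

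**Figure D5:**
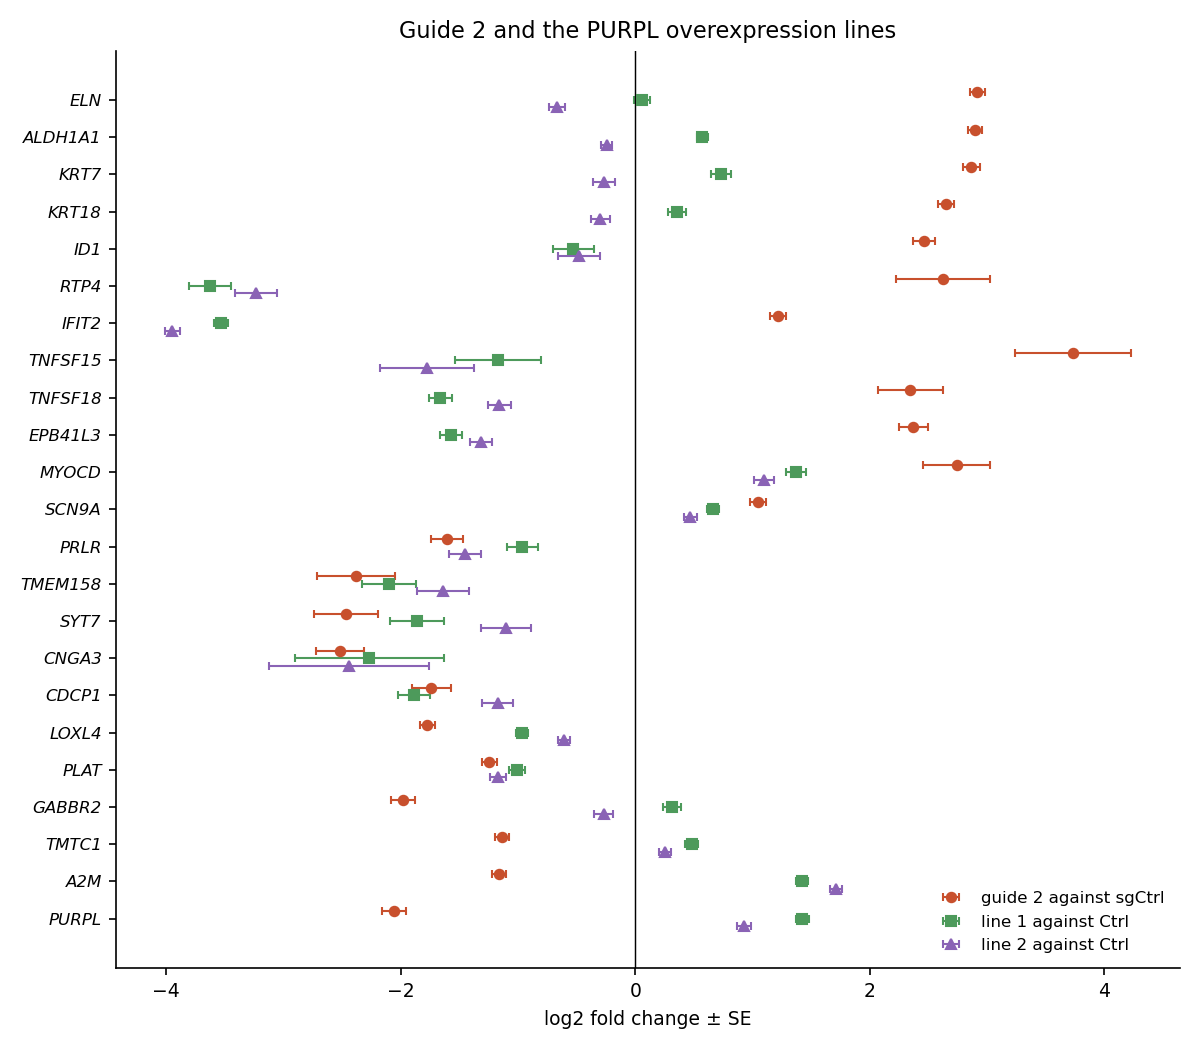
Log2 fold change with its SE for 23 genes, with guide 2 against sgCtrl (circles) and in overexpression lines 1 (squares) and 2 (triangles) against Ctrl. IFIT2, RTP4, TNFSF18, EPB41L3 and A2M lie on opposite sides of 0 in the 2 experiments, and TMEM158, SYT7, PRLR, CDCP1, LOXL4 and PLAT lie below 0 in all 3 comparisons.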

How the data were processed

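RNA of BJ fibroblasts was sequenced in 18 libraries, 3 in each of 6 groups; the labels call the molecule genomic DNA, while their protocol describes poly(A) RNA. Per the submitters' processing notes, the tools included FastQC 0.11.9, cutadapt 3.3, HISAT2 2.1.0, SAMtools 1.11, featureCounts 2.0.1 and DESeq2 1.34.0, with hg38 and GRCh38.p13. The authors deposited raw counts per gene, not normalized, in 1 table for knockdown and 1 for overexpression. Strand use in counting is not given in the sources used here. No gene nested in a same-strand gene had counts (0 of 9427), and genes that partly overlap one are uncertain: of those named, C3, CAMK1D, CDH1, CNGA3, COL11A1, CRYBG1, CYP1B1, DHRS3, FKBP5, FRMPD4, GDF5, IFIT2, IGF2, JAG1, KRT7, NALF1, PITX1-AS1, POU2F2, SMAD6, SYT7 and TMTC1.

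From these counts, edgeR 4.0.16 in R 4.3.3 filtered genes (filterByExpr, count minimum 10, total 15), scaled by TMM and fitted all 9 knockdown libraries with a robust quasi-likelihood model without covariates (6 residual degrees of freedom). The overexpression table was fitted alone in the same way. CPM is TMM-scaled, standard errors are the log2 fold change over the square root of F, and p-values were adjusted over all genes tested. The procedure was tested on simulated data. Alternatives were DESeq2 1.42.0, other size factors, other filters, no overlapping genes, 6 libraries only, a replicate block and leaving out each library.

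The members and lists were chosen with earlier results of these data known. Named genes are PURPL and the 15 largest changes each way with groups that do not overlap. Only the higher group had to reach a mean of 2 CPM, so risers could have almost no counts in the controls. The rule also took the next 10 outside all 74 lists, the 10 largest differences from guide 1 each way and the 10 most abundant 2-fold changes. Up to 4 per list and 5 lncRNAs each way completed it. Chosen after their values were seen were ATOH8, BMPER, BST2, CDH1, CLSPN, COL1A1, COL6A1, CRABP2, CXCL12, DHRS3, DUSP6, GDF5, ID3, IGFBP3, KRT19, NOG, PITX1, RDH10, SKIL, SMAD6, SNAI2, STMN2 and WARS1, and the 5 promoters shown beside that of PURPL.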

Additional observations from a re-analysis of the deposited data

Results flagged for a closer look

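Among the genes named for the largest differences between the guides, 3 had every guide 2 library below and every guide 1 library above every sgCtrl library. Over all 13923 genes tested, 54 (0.388%) had this order, and the reverse order was not counted. Since these 3 were chosen by their difference from guide 1, its p-values describe that choice. SLC16A6, a transporter of the monocarboxylate family, measured 47.4, 46.8 and 49.2 CPM in the controls. It rose to 72.2, 77.4 and 69.8 CPM in the guide 1 libraries, whereas the guide 2 libraries held 25.8, 30.4 and 27.7 CPM. The log2 difference of guide 2 from guide 1 was -1.39 ± 0.0754 (edgeR, adjusted p = 3.25e-14). CRYBG1, a crystallin domain protein, measured 12.2, 14.2 and 14.5 CPM in the controls, 18.7, 21.7 and 18.0 CPM under guide 1, then 7.93, 9.15 and 9.86 CPM under guide 2, a difference of -1.11 ± 0.119 (edgeR, adjusted p = 7.23e-08). CAMK1D, a calcium-dependent kinase, measured 7.98, 8.48 and 7.28 CPM, 11.3, 12 and 10.5 CPM and 4.79, 5.37 and 5.95 CPM in the same order, a difference of -1.07 ± 0.141 (edgeR, adjusted p = 2.60e-06). CRYBG1 and CAMK1D partly overlap same-strand genes.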

How the results depend on the processing

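Under the stricter low-count filter (minimum 30), 164 genes were at least 2-fold higher with guide 2, against 292. In that fit 102 were at least 2-fold lower, against 140, and fewer low genes were tested. The other counts over all genes stayed within 1.5 times, but counts within single lists did not always: of the list counts and medians, 84 moved and 138 did not when overlapping genes were left out, which tests fewer genes, and 31 and 191 under the stricter filter. Without overlapping genes 7 BMP and ID genes and 6 collagens rose, and 9 matrix proteases, 7 proteoglycan genes and 1 synaptic gene fell; under the stricter filter 4 chemokines and 3 keratins rose. Leaving out 1 library gave 1267 to 1763 genes higher, 1324 to 1804 lower, 259 to 309 at least 2-fold higher, 142 to 156 at least 2-fold lower, a PURPL log2 fold change of -2.14 to -1.93, 525 to 946 called genes that differed between the guides and 65 to 72 named genes opposite in both overexpression lines. DESeq2 called 1393 higher and 1396 lower. Numbers did not pair the samples (correlations of same-numbered libraries 0.0386, -0.0282 and -0.0888); with a replicate block 1581 genes were higher and 1636 lower, 290 and 141 at least 2-fold, 688 differed between the guides, and PURPL changed by -2.05. Of 351 genes named by rule or added, 41 lost their call under at least 1 alternative and 0 reversed; 36 of 140 differences between the guides and 77 of 495 overexpression results lost theirs. With 3 libraries a group, small changes of low genes are the least certain.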
